A study of Mus musculus with 9 samples.

Results

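The long fragments from the 5' end of the nuclear tRNA Gly-TCC, which reads glycine codons, were the subject here. They were taken as the rows of the fragment table with the type tRF-5c or tiRNA-5 and a name that holds Gly-TCC but not the mitochondrial mark. This rule found 4 of the 200 listed fragments, all assigned to the tRNA Gly-TCC-1: tRF-1:30-Gly-TCC-1, tRF-1:31-Gly-TCC-1, tRF-1:32-Gly-TCC-1 and tiRNA-1:34-Gly-TCC-1, of 30, 31, 32 and 34 nt. They start at the same base and differ only in where they end, so they are neighbouring products of the same tRNA and not independent of each other. All 4 passed the filter on low counts.

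Small RNA was sequenced from the back of the eye of C57BL/6 mice, dissected as 1 piece that held the RPE (the retinal pigment epithelium), the blood vessels of the choroid under it and the sclera, the white outer coat. There were 3 complexes at day 3 and 3 at day 7 after laser burns of the eye, and 3 from mice without treatment (control). An age of 6 to 8 weeks is given for the mice of all 3 groups. The burns were made, per the labels, at 6 to 8 weeks of age with a 532 nm laser at 110 mW for 100 ms, and a bubble marked the break of Bruch's membrane, the sheet through which new choroidal vessels then grow (choroidal neovascularization, CNV). Avertin was given for anesthesia and tropicamide to widen the pupil, and no transgene or deletion is named. The labels do not give the number of animals or eyes behind a complex, and no mRNA was measured, so the tissue could not be checked by its markers.

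When tRNAs are cut in the anticodon loop, the long 5' piece is called a tiRNA-5, and angiogenin is the enzyme best known for this cut under stress. Shorter pieces that end within the anticodon stem or at the start of its loop are classed as tRF-5c. The 5' fragments of glycine tRNAs are among the most abundant small RNAs of many mouse tissues, and in other settings tiRNAs have been tied to control of translation. Which base a fragment ends on is therefore the property by which these 4 differ.

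The mature Gly-TCC-1 tRNA, as the deposited alignments give it, is shown first because all end points are read against it; capitals mark its anticodon, bases 34 to 36 of 75. The 4 fragments follow, with the last base in capitals.
mature Gly-TCC-1: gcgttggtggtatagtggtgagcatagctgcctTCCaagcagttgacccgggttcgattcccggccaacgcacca
tRF-1:30-Gly-TCC-1: gcgttggtggtatagtggtgagcatagctG
tRF-1:31-Gly-TCC-1: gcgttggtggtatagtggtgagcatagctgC
tRF-1:32-Gly-TCC-1: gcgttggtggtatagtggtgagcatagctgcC
tiRNA-1:34-Gly-TCC-1: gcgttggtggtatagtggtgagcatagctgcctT
The 34 nt fragment thus ends on the first base of the anticodon, and the other fragments end 2, 3 and 4 bases before it. Among the 7 listed fragments with Gly-TCC in their name, none was 33 nt long.

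Each of the 4 was aligned by the authors to a single tRNA sequence, named tRNA-Gly-TCC-1-1. RefSeq (GRCm38.p6) lists 7 tRNA genes whose symbols start with n-TGtcc. Of these, 5 lie on chromosome 1 between positions 171037997 and 171102827, 1 on chromosome 3 (chr3:96501009-96501080) and 1 on chromosome 11 (chr11:69041278-69041349). Which of these genes the fragments came from was not determined. The sequences stand well apart from the abundant Gly-GCC fragments: over the first 16 bases Gly-TCC-1 differs from Gly-GCC-2-M3 by A3G, T12A and C13T (the base of Gly-GCC-2-M3 is given before the position, which is counted from 1 at the 5' end). At 30, 31 and 32 nt the edit distance to the Gly-GCC-2-M3 fragment of the same length was 9. At 34 nt the nearest listed fragment was tiRNA-1:34-Asp-GTC-1-M2, at an edit distance of 10.

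These were scarce fragments, counted on a background of 1204173 to 2155977 mapped reads per library. By mean CPM (counts scaled to the mapped reads of the library) over the 9 libraries they ranked 142nd (32 nt), 157th (31 nt), 191st (34 nt) and 196th (30 nt) of 200. The 4 together had 115, 177 and 66 reads at day 3, 105, 93 and 90 at day 7, and 48, 127 and 90 in the controls. Summed, they averaged 60.1 ± 21.4 CPM at day 3, 67.1 ± 18.2 at day 7 and 51.2 ± 18.6 in the controls (SD, n = 3 each), and the 3 groups overlapped. They made up 0.0110% ± 0.00379 of the counts of all nuclear glycine long 5' fragments at day 3, 0.00912% ± 0.00275 at day 7 and 0.00708% ± 0.00258 in the controls. In bulk tissue, a fragment made by fewer cells and one made at a lower level per cell cannot be told apart.

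The fragment that ends on the anticodon, tiRNA-1:34-Gly-TCC-1, was higher at day 7 than at day 3. It had 22.4, 11.7 and 17.2 CPM at day 7 (27, 21 and 25 reads), against 7.95, 3.74 and 5.49 CPM at day 3 (16, 8 and 9 reads). Every day 7 library lay above every day 3 library, as in 15% of listed fragments (36% did not overlap in either direction). The fit gave a log2 fold change of 1.84 (SE 0.533), or 3.57-fold, with an adjusted p of 0.0141 by edgeR's quasi-likelihood test over all 200 fragments. A fragment is said to pass, rise or fall where this adjusted p lies below 0.05. It was the only 1 of the 4 to pass in this comparison, in which 34.5% of all listed fragments passed, 23% as higher at day 7 and 11.5% as lower. The value of 1.84 includes TMM, edgeR's correction for library composition. On mapped totals without TMM, the scaling of the CPM above, it was 1.56 (edgeR adjusted p = 0.0496). The call of the 34 nt fragment was lost when libraries were scaled to the summed counts of the listed fragments without TMM (log2 fold change 1.19, adjusted p = 0.146). The split over all fragments also depends on scaling, with 46 fragments higher and 23 lower here against 9 higher and 63 lower on that scaling.

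Against the controls the same fragment did not pass at day 7. The control libraries had 7.36, 7.43 and 5.57 CPM (9, 13 and 12 reads), so all 3 day 7 libraries were above all 3 controls. This held for 9% of listed fragments in that comparison, and 21% had groups that did not overlap in either direction. The means were 17.1 ± 5.35 CPM at day 7 and 6.78 ± 1.06 in the controls (SD, n = 3), with a log2 fold change of 1.59 (SE 0.534, unadjusted p = 0.00738, edgeR adjusted p = 0.111). At day 3 the mean was 5.73 ± 2.11 CPM, and the log2 fold change against the controls was -0.25 (SE 0.562, adjusted p = 0.737). The lowest maximum of any listed fragment was 20.1 CPM, and the 34 nt fragment exceeded that level only in day 7 replicate 1. The 30 nt fragment did so, narrowly, only in day 3 replicate 2. Whether fragments were listed for reaching such a level is not known. If they were, the 34 nt fragment was listed through a day 7 library, and its day 7 excess is not independent of the listing. Without day 7 replicate 1 the log2 fold change of the 34 nt fragment against day 3 was 1.82 (edgeR adjusted p = 0.0487).

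Of 32 nt, tRF-1:32-Gly-TCC-1 was the most abundant of the 4 by its mean over 9 libraries, 22.6 CPM. It had 14.9, 29.9 and 14.0 CPM at day 3, 38.2, 20.7 and 18.6 CPM at day 7, and 21.3, 24.6 and 20.9 CPM in the controls. Day 7 replicate 1 and day 3 replicate 2 were the high libraries, and the groups overlapped. The log2 fold change was -0.20 at day 3 against control (SE 0.383, adjusted p = 0.700), 0.43 at day 7 against control (SE 0.385, adjusted p = 0.581) and 0.64 at day 7 against day 3 (SE 0.384, adjusted p = 0.194). Scaled to the listed counts without TMM, the first was 0.20 and the last -0.01.

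Ending 3 bases before the anticodon, tRF-1:31-Gly-TCC-1 was intermediate in level. It had 24.8, 29 and 14.6 CPM at day 3, 19.1, 13.4 and 17.2 CPM at day 7, and 8.17, 24.0 and 10.7 CPM in the controls. Control replicate 2 was the high control and lay within the day 3 range. The log2 fold change was 0.67 at day 3 against control (SE 0.443, adjusted p = 0.247) and 0.50 at day 7 against control (SE 0.456, adjusted p = 0.607). Between day 7 and day 3 it was -0.17 (SE 0.442, adjusted p = 0.793), and 0.02 without day 3 replicate 2.

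The rarest was tRF-1:30-Gly-TCC-1. It had 9.44, 20.1 and 6.10 CPM at day 3, 7.47, 6.14 and 8.97 CPM at day 7, and 2.45, 16.6 and 4.64 CPM in the controls, where replicate 1 held 3 reads. Replicate 2 was the high library at day 3 and in the controls alike. The log2 fold change was 0.58 at day 3 against control (SE 0.638, adjusted p = 0.497), and it was -0.02 without day 3 replicate 2 and 1.57 without control replicate 2. At day 7 against control it was 0.23 (SE 0.678, adjusted p = 0.915), and -0.10 with mapped totals without TMM. Between day 7 and day 3 it was -0.35 (SE 0.652, adjusted p = 0.705), and 0.24 without day 3 replicate 2.

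**Figure D1:**
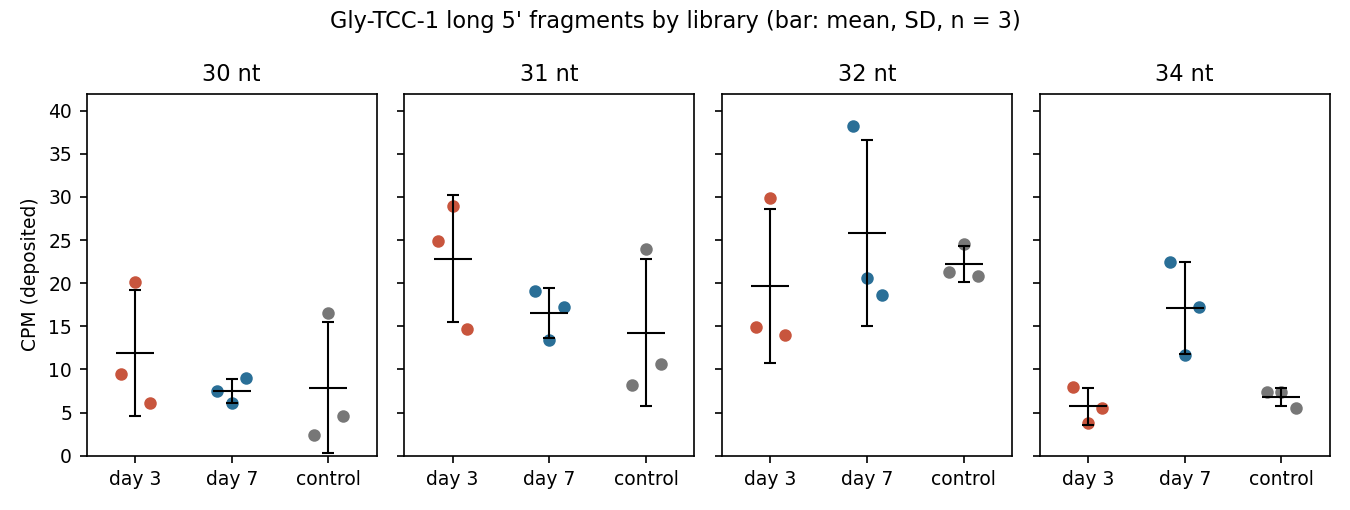
Deposited CPM of the 4 Gly-TCC-1 long 5' fragments, 1 panel per length, with 1 point per library and the mean and SD (n = 3) as black bars for day 3, day 7 and control. In the 34 nt panel the day 7 points (11.7 to 22.4 CPM) lie above all day 3 and control points (at most 7.95 CPM), while in the other panels the groups overlap.

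Counted over the 4 fragments, 0 rose and 0 fell at day 3 against control, where 21.5% of all 200 listed fragments passed (10% higher and 11.5% lower). The CPM of the groups overlapped for all 4 there, while 41.5% of listed fragments had groups that did not overlap, 22% with day 3 above. At day 7 against control 0 rose and 0 fell, where 4% passed (3.5% higher and 0.5% lower). None of the 4 had an unadjusted edgeR p below 0.05 at day 3 against control, where 88 of all 200 listed fragments did. At day 7 against control 1 of the 4, the 34 nt fragment, did, as did 38 of all 200. DESeq2 and limma-voom also called 0 of the 4 in both comparisons. Of all 200 fragments, DESeq2 called 58 at day 3 against control and 12 at day 7 against control, and limma-voom 48 and 7. The median log2 fold change of the 4 was 0.19 at day 3 against control, 0.47 at day 7 against control and 0.23 at day 7 against day 3, and that of all listed fragments was -0.04, 0.09 and 0.15. The last median of the 4 was -0.05 with mapped totals without TMM and -0.43 with listed counts without TMM. Both comparisons with control share the same 3 control libraries.

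**Figure D2:**
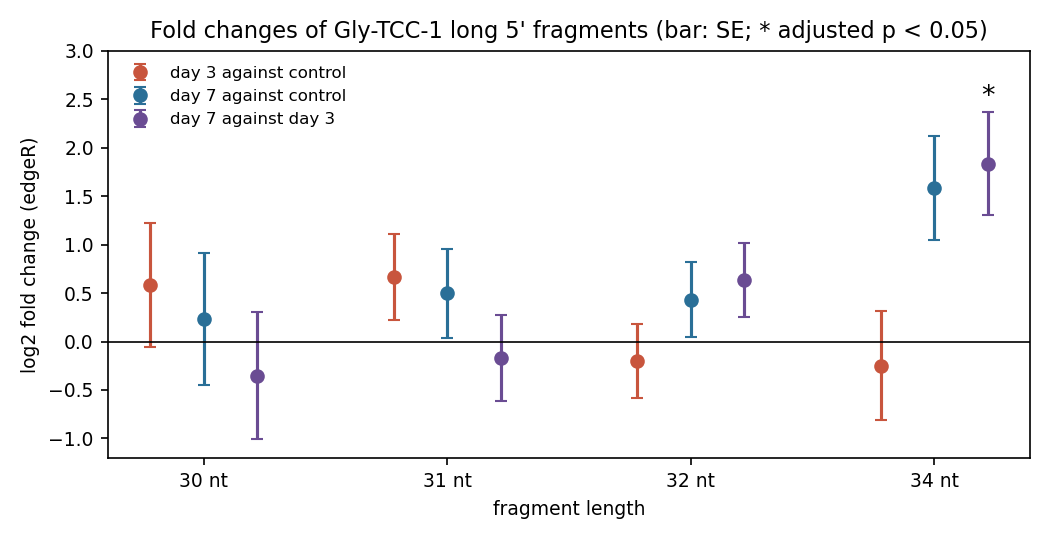
Log2 fold changes from the edgeR fit (vertical axis) for the 4 fragments by length, with the SE as bars, for day 3 against control, day 7 against control and day 7 against day 3. The asterisk marks the single value that passed, 1.84 for the 34 nt fragment at day 7 against day 3.

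The other nuclear glycine tRNAs, Gly-GCC and Gly-CCC, read the remaining glycine codons and share some with Gly-TCC. Of their 23 long 5' fragments, 4 rose and 0 fell at day 3 against control (median log2 fold change 0.54). At day 7 against control 7 rose and 0 fell (median 0.17), and at day 7 against day 3, 4 rose and 3 fell (median 0.30). Scaled to the listed counts without TMM, 10 rose and 0 fell at day 3 against control (median 0.86), 7 rose and 1 fell at day 7 against control (median -0.18), and 1 rose and 9 fell at day 7 against day 3 (median -0.36). Among 75 nuclear long 5' fragments of other amino acids, 11 rose and 2 fell at day 3 against control, 0 rose and 1 fell at day 7 against control, and 5 rose and 17 fell at day 7 against day 3, with medians of 0.32, 0.00127 and -0.41. For these 75 the listed counts without TMM gave 24 higher and 1 lower at day 3 against control, 0 higher and 7 lower at day 7 against control, and 1 higher and 39 lower at day 7 against day 3 (median -1.10). No test compared these counts with those of Gly-TCC-1.

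Other tRNAs also gave long 5' fragments of 34 nt. Of 15 such nuclear fragments, 1 rose and 1 fell at day 7 against day 3, with a median log2 fold change of 0.62. The one that rose was tiRNA-1:34-Val-CAC-3 (1.35, SE 0.496, edgeR adjusted p = 0.0391), which did not pass under any of the other 5 scalings (adjusted p = 0.0671 to 0.373), and the one that fell was tiRNA-1:34-Asp-GTC-2 (-1.71, SE 0.364, adjusted p = 0.00324). The value of 1.84 for Gly-TCC-1 lay above the range of these 15, -1.71 to 1.35. Among 8 other nuclear long 5' fragments of 33 nt, 2 rose and 0 fell, with a range of -0.70 to 2.04. The highest, 2.04, was also the highest of the 23 other glycine fragments, whose anticodons start at base 33. A 33 nt fragment thus ends on the first anticodon base there. At day 7 against control 4 of the 8 rose and 0 fell (highest 2.36). With listed counts without TMM 1 of the 8 rose and 1 fell at day 7 against day 3. A change of scaling moves all fragments of a comparison by a similar amount, so their order was largely fixed in advance. With listed counts as library size and TMM, the values at 34 nt were 1.55 for Gly-TCC-1 and 1.09 for the highest of the 15. This difference between parents was not tested. At the other lengths of the set, 0 of 14 other nuclear fragments of 30 nt rose and 6 fell at day 7 against day 3, 3 of 18 of 31 nt rose and 5 fell, and 2 of 26 of 32 nt rose and 4 fell. With listed counts without TMM 0 rose at any of these lengths, while 11 fell at 30 nt, 12 at 31 nt and 14 at 32 nt, and of the 15 at 34 nt 0 rose and 3 fell (median -0.03).

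The make-up by length is a measure that does not depend on how libraries are scaled. Fragments of 32 and 34 nt held 40%, 40.7% and 48.5% of the Gly-TCC-1 long 5' counts at day 3, with exact 95% binomial intervals (Clopper-Pearson) of 31 to 49.6, 33.4 to 48.3 and 36.0 to 61.1. At day 7 they held 69.5%, 62.4% and 57.8% (59.8 to 78.1, 51.7 to 72.2 and 46.9 to 68.1). In the controls they held 72.9%, 44.1% and 63.3% (58.2 to 84.7, 35.3 to 53.2 and 52.5 to 73.2). All day 7 libraries lay above all day 3 libraries, while control replicate 2 lay near day 3 and the other control libraries near day 7. The intervals cover counting error only.

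The mean share was 63.2% ± 5.92 at day 7 and 43.1% ± 4.72 at day 3 (SD, n = 3), a difference of 20.2 percentage points (two-sided exact permutation p = 0.1, with no smaller value possible for 3 libraries a group; 0.267 adjusted over 4 tests). The control mean was 60.1% ± 14.7. Day 3 minus control was -17.1 points (exact p = 0.2) and day 7 minus control 3.11 points (exact p = 0.9). Over the 3 groups together the exact permutation p was 0.139 over 1680 assignments, and without control replicate 2 it was 0.0179. No test of this share passed with all libraries, and the difference between day 7 and control turned to -4.90 points without control replicate 2.

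The 34 nt fragment by itself held 13.9%, 4.52% and 13.6% of the counts at day 3, 25.7%, 22.6% and 27.8% at day 7, and 18.8%, 10.2% and 13.3% in the controls. Here all day 7 libraries lay above all others. If the 34 nt fragment was listed through a day 7 library, as set out above, this excess in share is not independent of the listing. The means were 10.7% ± 5.35 at day 3, 25.4% ± 2.62 at day 7 and 14.1% ± 4.31 in the controls (SD, n = 3), with an exact permutation p of 0.0214 over the 3 groups (0.0857 adjusted over 4 tests) and 0.1 for day 7 against each of the others. The count-weighted mean length was 31.5 ± 0.182 nt at day 3, 32.02 ± 0.0886 nt at day 7 and 31.7 ± 0.314 nt in the controls (exact p = 0.0679 over the 3 groups; 0.2 adjusted over 4 tests).

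**Figure D3:**
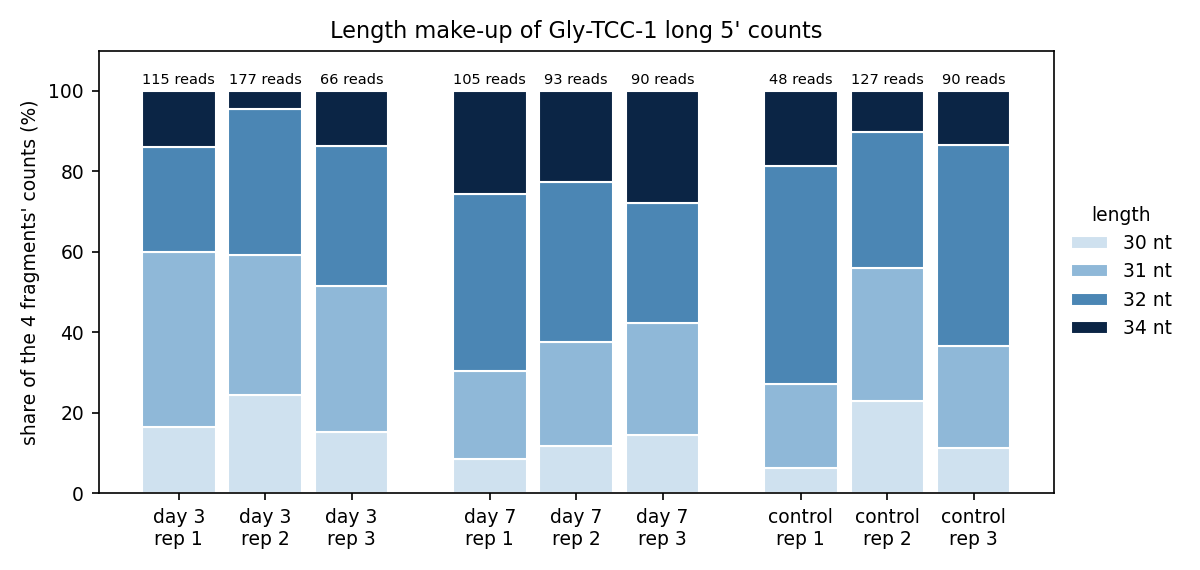
Share of the 4 fragments' counts (vertical axis, percent) held by each length in each library, as stacked bars from 30 nt at the bottom to 34 nt at the top, with the number of reads above each bar. The darkest part, 34 nt, holds 22.6% to 27.8% in the day 7 libraries, 4.52% to 13.9% at day 3 and 10.2% to 18.8% in the controls.

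The same bound of 32 nt was applied to all listed long 5' lengths of each other glycine tRNA, which are not the same lengths in every tRNA. In the controls fragments of 32 nt or more held 60.1% ± 14.7 of its counts, against 14.8% ± 1.09 for Gly-GCC-2-M3, 8.73% ± 0.566 for Gly-GCC-1, 92.5% ± 1.40 for Gly-CCC-1, 22.3% ± 2.98 for Gly-CCC-2 and 18.2% ± 3.00 for Gly-CCC-3-M2 (SD, n = 3). At day 3 the mean share was below that of the controls in Gly-TCC-1 (43.1%) and in Gly-CCC-1 (90.8% ± 4.23), and above it in the other 4 relatives. With the lengths matched (32 and 33 nt against 30 and 31 nt), the share in the controls was 54.03% ± 14.8 for Gly-TCC-1, 14.9% ± 1.05 for Gly-GCC-2-M3 and 8.89% ± 0.578 for Gly-GCC-1, and the shares of the Gly-CCC tRNAs were as above. The difference between parents was tested on the log2 ratio of counts of 32 nt or more to shorter ones, Gly-TCC-1 minus the relative. Against Gly-CCC-2 it was 0.19 ± 0.356 at day 3, 0.81 ± 0.545 at day 7 and 2.43 ± 0.660 in the controls (SD, n = 3; exact permutation p = 0.00714 over the 3 groups, 0.0714 adjusted over 20 tests). Against Gly-CCC-3-M2 it was 0.98 ± 0.434 at day 3, 1.52 ± 0.337 at day 7 and 2.81 ± 0.640 in the controls (exact p = 0.00714, adjusted 0.0714). None of the 20 tests passed after adjustment. Those between pairs of groups could not have passed, as 0.1 is the smallest exact p for 3 libraries a group. They still count among the 20 adjusted over. For the other relatives the p over the 3 groups was 0.05 (Gly-GCC-2-M3), 0.118 (Gly-GCC-1) and 0.354 (Gly-CCC-1), by the same exact test.

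The same length does not mean the same end point, because Gly-TCC-1 is 1 base longer before its anticodon. In the 5 relatives the anticodon starts at base 33, and in Gly-TCC-1 at base 34. When the bound was placed at the base before the anticodon, a choice made after seeing the data, only the 34 nt fragment counted as long in Gly-TCC-1. Its share was 10.7% ± 5.35 at day 3, 25.4% ± 2.62 at day 7 and 14.1% ± 4.31 in the controls. For Gly-GCC-2-M3 the share was 19.9% ± 3.69 at day 3, 30.3% ± 11.3 at day 7 and 14.8% ± 1.09 in the controls (SD, n = 3). On this bound the p over the 3 groups was 0.05 against Gly-CCC-2, 0.0964 against Gly-CCC-3-M2, 0.332 against Gly-GCC-2-M3, 0.561 against Gly-GCC-1 and 0.904 against Gly-CCC-1 (exact permutation tests), and 0.4 or more after adjustment.

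**Figure D4:**
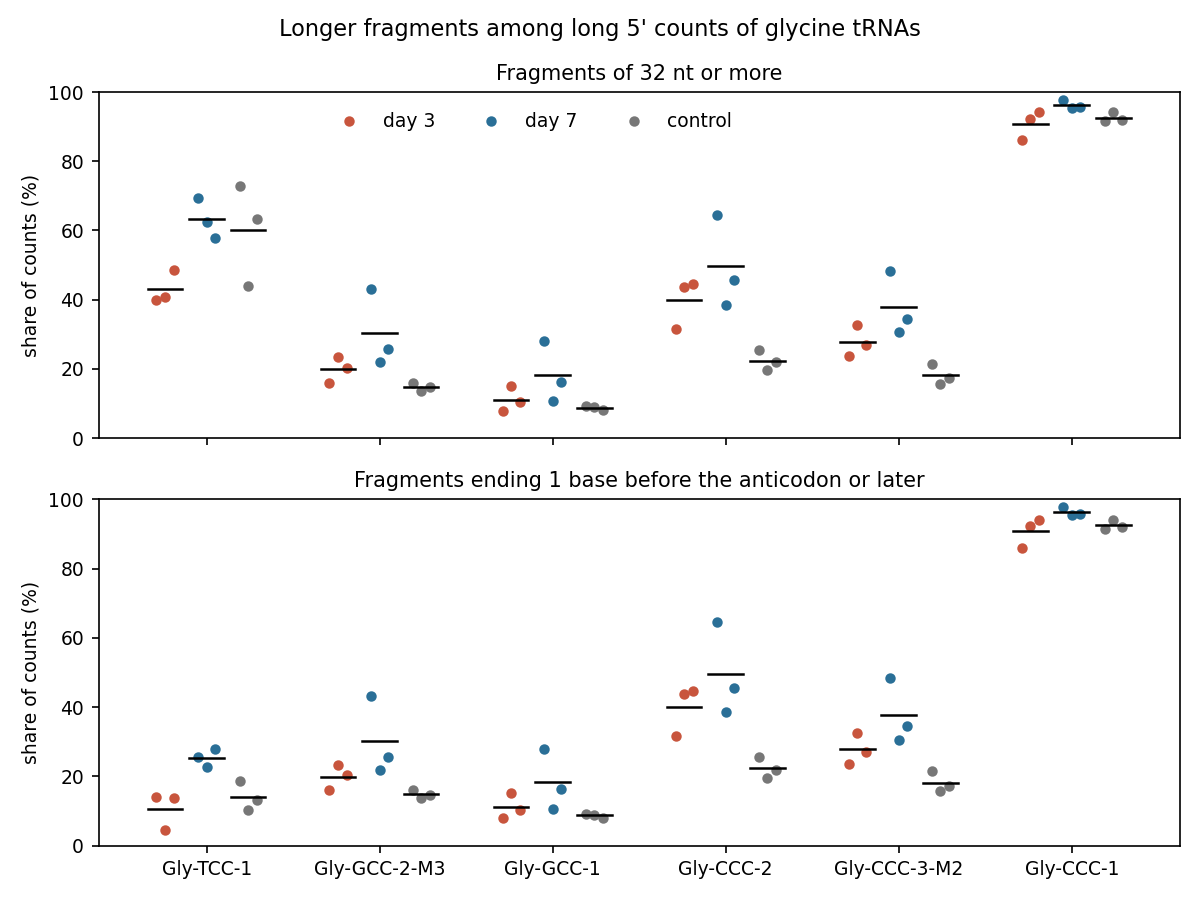
Share of each glycine tRNA's long 5' counts (vertical axis, percent) held by fragments of 32 nt or more (top) and by fragments that end 1 base before the anticodon or later (bottom), with 1 point per library and a line at the mean for day 3, day 7 and control. Gly-TCC-1 averages 60.1% in the controls at the top and 14.1% at the bottom, next to 14.8% for Gly-GCC-2-M3 in both panels.

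Other fragments of Gly-TCC tRNA were listed as well. The 3' fragment tRF-54:75-Gly-TCC-1 (tcgattcccggccaacgcaCCA, capitals marking the CCA added to mature tRNAs) had 36.5, 10.6 and 6.90 CPM at day 7, against 4.47, 6.55 and 11.6 CPM at day 3. The groups overlapped, and day 7 replicate 1 stood high. Its log2 fold change at day 7 against day 3 was 1.43 (SE 0.546, edgeR adjusted p = 0.0471). This call was lost under each of the 5 other scalings (adjusted p = 0.0635 to 0.277) and without day 7 replicate 1 (0.75, adjusted p = 0.375). At day 3 against control its log2 fold change was -1.39 (SE 0.537, adjusted p = 0.0590; controls 9.81, 22.3 and 25.0 CPM). Of 33 nuclear fragments from the 3' side of all tRNAs, 14 rose and 0 fell at day 7 against day 3 in the same fit, and 0 rose and 12 fell at day 3 against control. Scaled to the listed counts without TMM, 1 rose and 1 fell at day 7 against day 3, and 0 rose and 6 fell at day 3 against control. The 4 long 5' fragments had 12.8, 12.6 and 3.47 reads per read of this 3' fragment at day 3, 2.39, 4.89 and 9 at day 7, and 4, 3.26 and 1.67 in the controls. The mitochondrial Gly-TCC trailer, a product of a different gene, did not pass in any comparison (edgeR adjusted p = 0.489 at day 3 against control, 0.543 at day 7 against control and 0.837 at day 7 against day 3).

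The short 16 nt fragment of the same 5' end, tRF-1:16-Gly-TCC-1, stops in the D arm. It had 9.44, 24.8 and 20.1 CPM at day 3 and 15.8, 7.26 and 3.45 CPM at day 7, against 1.63, 5.14 and 2.32 CPM in the controls. The day 3 libraries lay above all controls, as in 22% of listed fragments (log2 fold change 2.497, SE 0.628, edgeR adjusted p = 0.00770). At day 7 against control it did not pass (1.68, SE 0.664, adjusted p = 0.152). Among all 32 nuclear short 5' fragments, 4 rose and 0 fell at day 3 against control and 0 passed at day 7 against control. Over the other scalings 3 to 12 rose and 0 fell at day 3 against control. There were 6.05, 3.34 and 2.00 long reads per 16 nt read at day 3, 5.53, 7.15 and 18 at day 7, and 24, 14.1 and 18 in the controls, so that the ratio was lower in every day 3 library than in every control library. The control ratios rest on only 2, 9 and 5 reads of the 16 nt fragment, against 19, 53 and 33 at day 3. The 16 nt fragment exceeded the lowest maximum of any listed fragment, 20.1 CPM, only in day 3 replicate 2 and, narrowly, replicate 3. Whether fragments were listed for reaching such a level is not known. If they were, its day 3 excess and the lower ratio at day 3 are not independent of the listing.

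Within Gly-TCC-1 the shortest lengths varied together and the longest did not follow them. Across the 9 libraries, where both values of a point come from the same library and its depth, log2 CPM of the 30 and 31 nt fragments had a Pearson correlation of 0.95, of 30 and 32 nt 0.28, of 32 and 34 nt 0.27, of 31 and 32 nt 0.23, of 31 and 34 nt -0.05 and of 30 and 34 nt -0.15. The listed fragments most like the sum of the 4 over the 9 libraries were tRF-1:29-His-GTG-2 (0.78), tRF-1:30-His-GTG-2 (0.75), tRF-1:29-Val-AAC-1-M2 (0.73), tRF-1:28-His-GTG-2 (0.72) and tRF-1:29-Glu-TTC-2 (0.66), against a median of 0.04 over the other fragments. With group means removed the leading fragments were tRF-1:29-Glu-TTC-3 (0.96), tRF-1:30-His-GTG-2 (0.95), tRF-1:28-Gly-GCC-2-M3 (0.93), tRF-1:28-His-GTG-2 (0.92) and tRF-1:29-His-GTG-2 (0.91). All of these are 5' fragments of 28 to 30 nt. Within Gly-TCC-1, removing group means gave 0.95 for 30 and 31 nt, 0.47 for 30 and 32 nt and 0.50 for 31 and 32 nt. For 34 nt it gave 0.17 with 31 nt, -0.08 with 32 nt and -0.11 with 30 nt. The 34 nt fragment had only 8 to 27 reads in a library.

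The share of mapped reads that the listed fragments held was lower at day 3 (58.8% ± 3.05) than at day 7 (77.0% ± 1.67) or in the controls (75.8% ± 0.179; SD, n = 3). Scaled to the listed counts without TMM, where the 34 nt fragment did not pass at day 7 against day 3, the median log2 fold change of all listed fragments was -0.51, against 0.15 in the fit with mapped totals and TMM. The part of the lower listed share at day 3 in this difference was not tested.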

How the data were processed

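Per the file headers, the authors deposited counts of reads per fragment and CPM (counts scaled to mapped reads). The submitters' processing notes name FastQC, Bowtie, edgeR and the build mm10, without roles. Per the labels' protocols, RNA was treated to remove modifications that block ligation or reverse transcription, and PCR products of about 134 to 160 bp were cut from a gel, a step that selects insert lengths. Control columns are headed NC with a number, taken as the controls because the other 6 name day 3 or day 7. In the table, 7 lines were empty and were not used. Count divided by CPM gave the mapped total of each library.

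Counts of all 200 fragments were fitted with edgeR 4.0.16 (R 4.3.3; quasi-likelihood, mapped totals with TMM factors of 0.749 to 1.14, a mean per group, 9 libraries; filterByExpr removed 0), with Benjamini-Hochberg adjustment over 200 and a threshold of 0.05. Log2 values for correlations used a pseudocount of 0.5 CPM. For shares, two-sided exact permutation tests over libraries were run, with p-values adjusted within their family. DESeq2 1.42.0, limma-voom (limma 3.58.1), other scalings, a replicate block and each library left out were tried. The code was tested on simulated data. Whether each complex is from its own animal is not in the labels, so p-values reflect only how these libraries varied, possibly for technical reasons. The members, lists and tests were chosen with earlier results of these data known. Every member is named; the fragments most alike are the 5 of highest correlation by each measure.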

Additional observations from a re-analysis of the deposited data

Results flagged for a closer look

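The effects of day 3 and day 7 on tiRNA-1:34-Gly-TCC-1 differed by the test of day 7 against day 3, with a log2 fold change of 1.84 (SE 0.533, edgeR adjusted p = 0.0141, n = 3 each). Scaled to the listed counts without TMM it was 1.19 (adjusted p = 0.146) and did not pass. The fragment averaged 17.1 ± 5.35 CPM at day 7 and 5.73 ± 2.11 CPM at day 3 (SD). All 3 day 7 libraries lay above all 3 day 3 libraries, as in 15% of listed fragments, and 34.5% of listed fragments passed in this comparison. Against control the fragment passed neither at day 3 (edgeR adjusted p = 0.737) nor at day 7 (0.111). It exceeded 20.1 CPM, the lowest maximum of any listed fragment, only in day 7 replicate 1. If fragments were listed for reaching such a level, which is not known, its day 7 excess is not independent of the listing.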

How the results depend on the processing

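Depth limits these fragments, which had 3 to 64 reads in a library. The call of tiRNA-1:34-Gly-TCC-1 at day 7 against day 3 held with DESeq2 (adjusted p = 0.0124), limma-voom (0.0120), mapped totals without TMM (0.0496) and each library left out (0.0150 to 0.0487). With listed counts without TMM, added after seeing the data, 0 members passed, and the median of all fragments shifted by 0.41 (day 3 against control), -0.28 (day 7 against control) and -0.65 (day 7 against day 3). That scaling turned log2 fold changes that had not passed to 0.20 (32 nt) and 0.12 (34 nt) at day 3 against control, -0.12 (30 nt) at day 7 against control and -0.00615 (32 nt) at day 7 against day 3. Mapped totals without TMM gave -0.10 for 30 nt at day 7 against control. A mean of 100 CPM or more left no member. With a library left out, the values that turned ranged at day 3 against control from -0.016 to 1.57 (30 nt) and -0.63 to 0.00245 (32 nt), at day 7 against control from -0.10 to 1.18 (30 nt), and at day 7 against day 3 from -0.67 to 0.24 (30 nt) and -0.42 to 0.021 (31 nt). Over all fragments, calls numbered 43 at day 3 against control (67 with groups fitted alone, 22 to 59 with a library left out), 8 at day 7 against control (14 with mapped totals without TMM, 15 with listed counts without TMM, 4 without Gly-GCC, 3 to 17 with a library left out) and 69 at day 7 against day 3 (39 to 72). At day 7 against day 3, 30 were higher and 39 lower with mapped totals without TMM, and at day 3 against control 49 and 14 with listed counts without TMM.

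For the share of 32 nt or more, day 7 minus control was -3.39 points for 32 against 30 and 31 nt, and -4.90 to 9.51 with a library left out. With a bound of 33 nt only the 34 nt fragment counts as long, so the limit from its listing applies there. Over the 3 groups, 0.766 of the variation lay between groups with a bound of 33 nt (exact p = 0.0214), and 0.460 to 0.855 with a library left out. For the ratio this part was 0.486 (Gly-CCC-2) and 0.578 (Gly-CCC-3-M2) at 33 nt, 0.519 and 0.424 by the anticodon, all losing p under 0.05, and with a library left out 0.568 to 0.843 (Gly-GCC-2-M3) and 0.725 to 0.903 (Gly-CCC-3-M2). Against Gly-CCC-1 the difference turned at 33 nt to 0.50 (day 3 minus control), 2.02 (day 7 minus control) and 1.52 (day 7 minus day 3), the last 0.29 by the anticodon and -0.35 to 0.12 with a library left out. The causes were not tested.

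The numbers were not taken as pairs, since only 2 of 9 same-numbered pairs correlated over 0.1, although in 10 of 18 searches among 3 libraries a library was most like its own number, a hint of pairing from the data. With the replicate block the 34 nt fragment kept its call (1.87, adjusted p = 0.0179), 47, 8 and 64 fragments passed in all, and Gly-CCC-2 over the 3 groups (0.824) had a p of 0.0556.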
